A study of Mus musculus with 8 samples.

Results

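The 57 genes described here drive or mark the cell division cycle. They were taken by symbol from the Ensembl identifiers of the count data and were read in 3 classes. The classes hold 15 regulators of the G1/S transition, 18 DNA replication genes and 24 mitosis genes. All 57 were found among the 54532 identifiers, and all 57 passed the filter on low counts that left 22544 genes for testing. RNA came from wild-type mouse brain pericytes grown as primary cultures, of which 4 received vehicle and 4 received TGF-β1 at 5 µg/mL for 48 h. By their labels the 2 groups differed only in the treatment. Cells were freed from brain with papain, grown in endothelial and then pericyte medium and passaged before use, so they are an expanded culture and not freshly isolated pericytes. The labels number the vehicle cultures 1 to 4 and the TGF-β1 cultures 5 to 8. By the study's methods, 4 independent isolates received both vehicle and TGF-β1, so a culture of each group may come from the same isolate. The labels do not show which cultures those are. Every fit therefore treated the cultures as unpaired. A p-value from these fits sets the difference between groups against the spread between cultures of a group. How much of that spread lies between isolates is not known.

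A cell enters division when D-type cyclins, made in response to growth signals, activate the kinases Cdk4 and Cdk6. These kinases and the later cyclin E and Cdk2 pair phosphorylate the retinoblastoma protein and its relatives, which releases E2F transcription factors. E2F then switches on the genes that license and copy DNA, and FoxM1 and B-Myb act later on the genes of mitosis. TGF-β is best known for arresting epithelial cells in G1, by raising CDK inhibitors and lowering Myc, whereas in mesenchymal cells its effect on growth depends on the cells and their state.

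The comparison asked how TGF-β1 changes the level of these transcripts in cultured pericytes. Of the 57 genes, 39 were higher and 4 lower with TGF-β1, and 14 did not pass the threshold (edgeR quasi-likelihood test, Benjamini-Hochberg adjusted p under 0.05 over all genes tested). By the same rule 41.3% of all genes tested were called, 20.9% as higher and 20.3% as lower. The 4 lower genes were the cyclins *Ccnd2* and *Ccnd3*, the helicase subunit *Mcm6* and the ribonucleotide reductase subunit *Rrm1*. The changes were small. The median log2 fold change over the 57 genes was 0.12 against -0.01 over all genes tested, and single genes ran from -0.52 for *Ccnd3* to 0.61 for *Myc*. In 33 of the 57 every TGF-β1 culture lay above every vehicle culture, and in 4 every one lay below, against 19.1% and 18.8% of all genes tested (37.9% together). The vehicle cultures were not alike for these genes, and with vehicle cultures 1 and 2 both left out 26 of the 57 were called higher and 5 lower, when 33.6% of all genes tested were called, 16.6% as higher. When the test was set to ask for a change beyond 1.2-fold, a rule met by 15.1% of all genes tested, it kept 6 of the 57: *Ccnd3*, which fell, and *Cdk6*, *Ccne1*, *Ccne2*, *Myc* and *Bub1*, which rose.

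**Figure D1:**
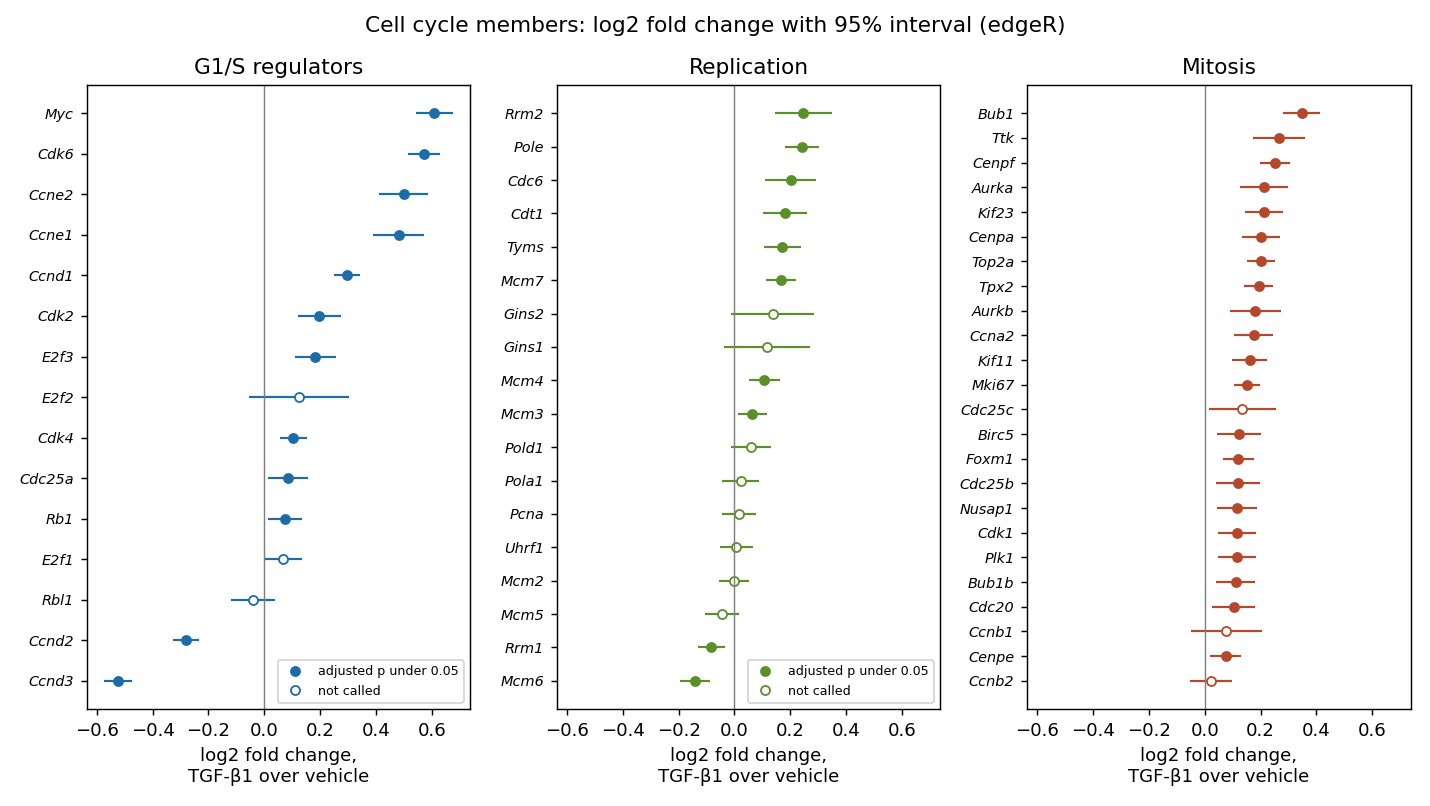
Log2 fold change of each gene (TGF-β1 over vehicle, 4 cultures each, x axis) with its 95% interval, one panel for each class and genes ordered by value. Filled points had an adjusted p under 0.05. The G1/S regulators spread from -0.52 to 0.61, while the replication genes stay between -0.14 and 0.25 and the mitosis genes between 0.02 and 0.35.

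The libraries held 45255235 to 47651397 counts, and totals did not separate the groups (exact two-sided permutation test, p = 0.857; the smallest p that 4 against 4 cultures allow is 0.0286). Levels are given as CPM, counts per 1000000 after TMM scaling, on which 3 counts are worth 0.0631 to 0.0658. To compare one gene with another, CPM was divided by the gene's exon length in kilobases (RPKM). Of 10 pericyte markers, *Pdgfrb* was at 202 and 291 CPM in the vehicle and TGF-β1 means, *Cspg4* at 82.9 and 169 CPM and *Notch3* at 88.5 and 85.9 CPM. *Anpep* was at 40.5 and 30.1 CPM, *Rgs5* at 8.62 and 2.13 CPM and *Des* at 0.685 and 0.623 CPM, and the defining brain pericyte genes *Kcnj8*, *Abcc9* and *Vtn* were at or near 0, with means of at most 0.114 CPM. The summed level of the 10 ran from 414 to 434 CPM with vehicle and from 569 to 591 CPM with TGF-β1. Of 5 fibroblast markers *Lum* was near 0, at means of 0.0865 and 0.0652 CPM, *Pdgfra* was at 62.5 and 63.0 CPM and was not called, *Dcn* fell from 52.1 to 46.7 CPM (log2 fold change -0.16, adjusted p = 3.72e-04), and the sum, which is mostly *Col1a1* and *Col1a2*, ran from 3717 to 3877 CPM and from 5327 to 5569 CPM. The 8 endothelial markers summed to 471 to 484 and 472 to 498 CPM, mostly *Cdh5* (375 and 367 CPM) and *Flt1* (81.7 and 99.2 CPM), with *Kdr* at 17.9 and 18.6 CPM and *Tek*, which fell, at 2.71 and 1.99 CPM (adjusted p = 0.0126), while *Pecam1*, *Cldn5*, *Erg* and *Emcn* had means of at most 1.11 CPM. The 6 astrocyte markers summed to 239 to 250 and 208 to 222 CPM, mostly *Gja1* (195 and 190 CPM). Of the others, *Slc1a2* (38.5 and 16.3 CPM) and *S100b* (4.80 and 1.64 CPM) fell and *Aldh1l1* (5.16 and 8.79 CPM) rose, and *Gfap* and *Aqp4* had means of at most 0.947 CPM. The 8 microglia and macrophage markers summed to 104 to 109 and 103 to 105 CPM, of which *Tmem119* made 102 and 98.5 CPM, and *Csf1r*, the one called, rose by 0.73 on the log2 scale to 2.50 CPM (adjusted p = 2.22e-04), while the other 6 had means of at most 1.03 CPM. Sums were 4.12 to 5.48 and 5.34 to 6.04 CPM for 5 oligodendrocyte markers, of which *Mbp* rose from 1.86 to 2.62 CPM (adjusted p = 0.00411) and *Sox10* fell from 0.451 to 0.212 CPM (adjusted p = 0.0370). With vehicle cultures 1 and 2 left out, the calls of *Tek* and *Mbp* were lost (adjusted p = 0.110 and 0.0577). The microglia marker *P2ry12*, at 2 to 17 counts per culture, was called higher there (log2 fold change 2.19, adjusted p = 0.00923). Over all 8 cultures it was not called (0.99, adjusted p = 0.0730). The part of any of these lists in the results was not tested. In bulk RNA, a change in the number of cycling cells and a change in RNA per cell cannot be told apart.

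The G1/S regulators held the largest changes in both directions. Of the 15 genes, 10 rose and 2 fell, and 3 (*Rbl1*, *E2f1* and *E2f2*) did not pass the threshold. Of all genes tested, 20.9% rose and 20.3% fell. The median log2 fold change of the 15 was 0.12. The D cyclins, which are the first cyclins of the cycle and bind *Cdk4* and *Cdk6*, went different ways, with *Ccnd1* up and *Ccnd2* and *Ccnd3* down.

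*Ccnd1* (chr7:144929931-144939925 in GRCm38, the assembly also called mm10) was at 396, 388, 415 and 413 CPM in vehicle cultures 1 to 4 and at 494, 494, 501 and 491 CPM in TGF-β1 cultures 5 to 8. Every TGF-β1 culture was above every vehicle culture, and the log2 fold change was 0.30 ± 0.02 (SE, adjusted p = 1.00e-14). Exons of the gene *LTO1* on the other strand cover 23.4% of the *Ccnd1* exons, and as the strand setting of the counting is not given in the sources used here, their reads cannot be told apart there. *Ccnd2* (chr6:127125162-127152193) was at 814, 786, 847 and 842 CPM with vehicle and 683, 673, 686 and 665 CPM with TGF-β1. The groups did not overlap, and the log2 fold change was -0.28 ± 0.02 (adjusted p = 3.99e-14). *Ccnd3* (chr17:47505051-47599691) was at 258, 261, 261 and 267 CPM with vehicle and 187, 181, 184 and 176 CPM with TGF-β1. The log2 fold change was -0.52 ± 0.02 (adjusted p = 3.08e-22). It had the largest fall of the 57 genes, to a mean 30.5% lower. When a change beyond 1.2-fold was required, the call of *Ccnd3* held (adjusted p = 2.51e-13), whereas *Ccnd1* (adjusted p = 0.129) and *Ccnd2* (adjusted p = 0.353) did not pass.

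Per exon length, *Ccnd1* and *Ccnd2* had mean levels of 85.6 and 87.4 RPKM with vehicle and of 105 and 71.9 RPKM with TGF-β1. On this scale *Ccnd2* was slightly above *Ccnd1* in all 4 vehicle cultures and below it in all 4 TGF-β1 cultures. In CPM *Ccnd2* was above *Ccnd1* in every culture of both groups. The CPM means of *Ccnd2* and *Ccnd1* were 822 and 403 with vehicle and 677 and 495 with TGF-β1. The share of the summed D cyclin level that came from *Ccnd1* went from 42.2% ± 0.144 (SD, n = 4) with vehicle to 53.2% ± 0.312 with TGF-β1. The share of *Ccnd2* went from 43.1% ± 0.290 to 36.4% ± 0.136 and that of *Ccnd3* from 14.7% ± 0.353 to 10.5% ± 0.181. The cultures of the 2 groups did not overlap in any of the 3 shares (exact two-sided permutation p = 0.0286, the smallest possible here, and 0.0327 after Benjamini-Hochberg adjustment over 8 such quantities). The sum of the 3 D cyclins was 203 ± 5.94 RPKM with vehicle and 198 ± 2.33 RPKM with TGF-β1 (exact permutation p = 0.229), and the 2 groups overlapped. In CPM, which is not divided by length, the same sum was lower with TGF-β1 in every culture, at 1468, 1435, 1523 and 1521 CPM with vehicle and 1364, 1348, 1371 and 1331 CPM with TGF-β1 (exact permutation p = 0.0286, adjusted 0.0327). The shares of the 3 genes per exon length thus differed. Whether their sum did, and whether *Ccnd1* or *Ccnd2* was the higher with TGF-β1, depended on the scale.

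**Figure D2:**
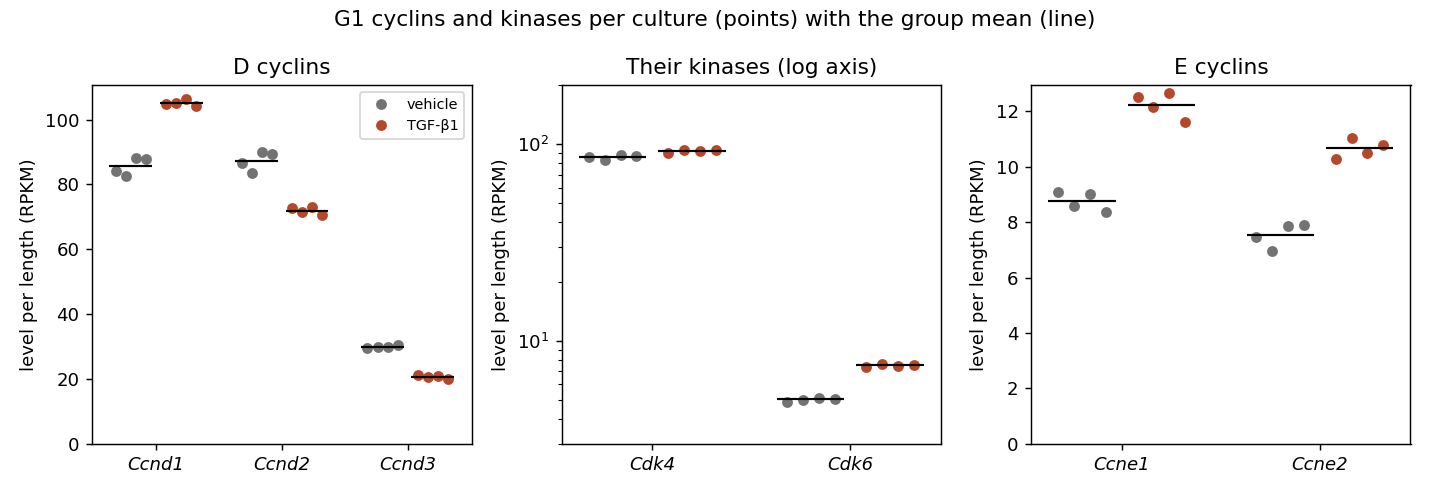
Level per exon length (RPKM) of the D cyclins, of the kinases *Cdk4* and *Cdk6* (log axis) and of the E cyclins in each culture (points), with the group mean as a line. *Ccnd1* sits higher and *Ccnd2* and *Ccnd3* lower in all 4 TGF-β1 cultures, *Cdk6* stays far below *Cdk4* in both groups, and both E cyclins are higher in all 4 TGF-β1 cultures.

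The partner kinases of the D cyclins both rose, by unequal amounts. *Cdk6* (chr5:3341485-3531008) was at 68.7, 70.3, 71.7 and 71.1 CPM with vehicle and 103, 107, 104 and 105 CPM with TGF-β1, 48.9% higher in the mean, with a log2 fold change of 0.57 ± 0.03 (adjusted p = 2.47e-21). *Cdk4* was at 280, 269, 286 and 283 CPM with vehicle and 293, 305, 299 and 305 CPM with TGF-β1, with a log2 fold change of 0.10 ± 0.02 (adjusted p = 3.59e-04). *Cdk4* remained the more abundant kinase per exon length, with means of 86.0 and 92.4 RPKM against 5.04 and 7.50 RPKM for *Cdk6*. The ratio of *Cdk6* to *Cdk4* went from 0.0586 ± 0.00153 to 0.0811 ± 0.000620 (exact permutation p = 0.0286, adjusted 0.0327). Of the *Cdk4* exons, 19.7% are overlapped by *Tspan31* on the other strand.

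Cyclin E, which takes over from cyclin D and pairs with *Cdk2*, was higher for both of its genes. *Ccne1* (chr7:38097984-38107534) was at 24.2, 22.9, 24.1 and 22.2 CPM with vehicle and 33.3, 32.3, 33.7 and 30.9 CPM with TGF-β1 (log2 fold change 0.48 ± 0.05, adjusted p = 2.54e-12). *Ccne2* (chr4:11191351-11204779) was at 26.1, 24.4, 27.5 and 27.6 CPM and then at 36.0, 38.6, 36.7 and 37.8 CPM (log2 fold change 0.50 ± 0.04, adjusted p = 3.47e-13). Neither gene's groups overlapped, although 17.4% of the *Ccne2* exons are overlapped by *Ints8* on the other strand. Summed E cyclins went from 16.3 ± 0.564 to 22.9 ± 0.368 RPKM, and their ratio to the summed D cyclins from 0.0805 ± 0.00196 to 0.116 ± 0.00135 (both exact permutation p = 0.0286, adjusted 0.0327). Their kinase *Cdk2* rose less (log2 fold change 0.20 ± 0.04, adjusted p = 2.37e-05). *Cdc25a*, the phosphatase that activates *Cdk2*, had a log2 fold change of 0.09 ± 0.04 and an adjusted p of 0.0493, which passed in some settings and not in others.

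*Myc*, the growth-promoting transcription factor, had the largest rise of the 57 genes. *Myc* (chr15:61985391-61990374) was at 58.2, 53.9, 59.7 and 57.6 CPM with vehicle and 84.0, 89.3, 88.0 and 88.8 CPM with TGF-β1. The groups were well apart, with a mean 52.5% higher and a log2 fold change of 0.61 ± 0.03 (adjusted p = 2.78e-20). Among the E2F factors that activate transcription, *E2f3* rose (log2 fold change 0.18 ± 0.04, adjusted p = 5.23e-05). *E2f1* had a log2 fold change of 0.07 (95% interval -0.00087 to 0.13, adjusted p = 0.111) and *E2f2*, the lowest of the 57 at 5.89 and 6.43 CPM, one of 0.12 (-0.06 to 0.30, adjusted p = 0.283). Of the pocket proteins that hold E2F in check, *Rb1* had a log2 fold change of 0.07 ± 0.03 (adjusted p = 0.0422, also lost in some settings). *Rbl1*, which encodes p107, had one of -0.04 (95% interval -0.12 to 0.04, adjusted p = 0.451). With vehicle cultures 1 and 2 left out, *Rbl1* was called lower (-0.11, adjusted p = 0.0451). Of the 15 G1/S regulators, 8 rose and 3 fell in that setting, when 33.6% of all genes tested were called.

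The replication genes moved least. Of the 18, 8 rose and 2 fell (44.4% and 11.1%), against 20.9% and 20.3% of all genes tested. The median log2 fold change of the 18 was 0.09. The groups were apart in the same 10 genes, and in 37.9% of all genes tested. With vehicle cultures 1 and 2 left out, 6 rose and 2 fell, when 33.6% of all genes tested were called, and the median was 0.02. Within the MCM2-7 ring, the helicase that opens DNA for copying, the subunits did not share a direction. *Mcm7*, *Mcm4* and *Mcm3* rose (log2 fold changes 0.17 ± 0.03, 0.11 ± 0.03 and 0.06 ± 0.03, adjusted p = 1.61e-06, 0.00140 and 0.0467). The call of *Mcm3* held in 6 of the 16 alternative settings other than the 1.2-fold test, where it was lost, and with vehicle cultures 1 and 2 left out those of *Mcm3* and *Mcm4* were both lost (0.027 and 0.052, adjusted p = 0.518 and 0.164). *Mcm6* (chr1:128331590-128359664) fell, from 190, 184, 202 and 200 CPM to 175, 179, 172 and 178 CPM, a log2 fold change of -0.14 ± 0.03 (adjusted p = 2.68e-05). *Mcm2* and *Mcm5* had log2 fold changes of -0.0034 (95% interval -0.06 to 0.05) and -0.05 (-0.11 to 0.02). Other genes, among them *Gm5487*, hold 33.4% of the 31-base words of the *Mcm7* exons, so its value is less sure than those of the other subunits, for which this share was at most 5.26%.

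The licensing factors that load this helicase, *Cdc6* and *Cdt1*, both rose (log2 fold changes 0.20 ± 0.05 and 0.18 ± 0.04, adjusted p = 2.71e-04 and 2.13e-04). For the GINS subunits, which join the helicase at firing, *Gins1* had 0.12 (95% interval -0.04 to 0.27) and *Gins2* 0.14 (-0.01 to 0.29), and neither passed the threshold. *Gins2* shares 67.3% of its exons with *Gse1* on the other strand, so its counts may be partly those of that gene. Among the DNA polymerases, the catalytic subunit of the leading-strand enzyme, *Pole*, rose from 69.4, 67.4, 66.7 and 68.3 CPM to 77.6, 81.1, 82.8 and 79.6 CPM (log2 fold change 0.24 ± 0.03, adjusted p = 5.74e-09). The catalytic subunits of the primase-bound and lagging-strand enzymes, *Pola1* and *Pold1*, had 0.02 (-0.05 to 0.09) and 0.06 (-0.01 to 0.13). *Pcna*, the sliding clamp of these polymerases, was at 136, 136, 154 and 146 CPM with vehicle and 145, 146, 141 and 146 CPM with TGF-β1. Its groups overlapped, and its log2 fold change was 0.02 (-0.05 to 0.08). *Uhrf1*, which guides maintenance methylation to new DNA, had 0.0065 (-0.05 to 0.07). For *Pcna* and *Uhrf1*, 23.3% and 24.2% of the 31-base words also occur in other genes.

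Nucleotide supply was split as well. *Rrm2*, the regulated small subunit of ribonucleotide reductase, rose from 140, 146, 164 and 162 CPM to 181, 185, 177 and 183 CPM (log2 fold change 0.25 ± 0.05, adjusted p = 9.19e-04). Its large subunit *Rrm1* fell from 318, 317, 332 and 329 CPM to 315, 301, 297 and 310 CPM (log2 fold change -0.08 ± 0.02, adjusted p = 0.00395). *Tyms*, which makes thymidylate, rose (0.17 ± 0.03, adjusted p = 2.88e-05). The groups did not overlap in these 3 genes, although vehicle cultures 1 and 2 were well below vehicle cultures 3 and 4 in *Rrm2*. With both left out, *Rrm2* was still called, at 0.15, and its place above *Pole*, at 0.24, was lost. *Cdt1*, too, was still called there, at 0.11.

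The stretch before the start of *Rrm2* is shown because it was, with *Pole*, one of the 2 replication genes with the highest log2 fold changes over all 8 cultures, and because its motif recurs across the mitosis genes. It is taken from RefSeq on GRCm38.p6, chr12:24708004-24708240, plus strand, and the capitals mark a CCAAT box, the binding motif of NF-Y, at 37 to 33 bases before the annotated start of the gene, which follows the last base shown.
Rrm2: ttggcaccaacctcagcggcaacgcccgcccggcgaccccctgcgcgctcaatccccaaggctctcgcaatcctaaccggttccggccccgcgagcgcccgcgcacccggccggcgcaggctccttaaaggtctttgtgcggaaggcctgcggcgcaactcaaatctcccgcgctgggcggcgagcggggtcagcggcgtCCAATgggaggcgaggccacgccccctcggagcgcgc

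The mitosis genes rose most evenly. Of the 24, 21 rose and none fell, against 20.9% and 20.3% of all genes tested. None fell at an unadjusted p under 0.05 either, by edgeR or by DESeq2. All 24 log2 fold changes were above 0 in both fits, so no threshold could have called one lower. Of all genes tested, 48.3% were above 0 by edgeR. The median of the 24 was 0.14. In 15 of the 24 every TGF-β1 culture lay above every vehicle culture, as in 19.1% of all genes tested. These counts rest in part on vehicle cultures 1 and 2, one or other of which had the lowest vehicle value in all 24 genes (10 and 14 genes). With both left out, 12 of the 24 rose and none fell, when 16.6% of all genes tested were called higher. In that setting 22 log2 fold changes of the 24 were above 0, and their median was 0.08. Leaving out 1 culture at a time kept 16 to 21 of the 24 as higher, with the fewest without vehicle culture 2. Of all genes tested, 18.5% to 20.7% were called higher in those fits.

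*Bub1*, a kinase of the spindle checkpoint, had the largest change of the class. *Bub1* (chr2:127801122-127831865) was at 51.6, 51.5, 52.4 and 55.9 CPM with vehicle and 66.1, 67.9, 68.1 and 66.8 CPM with TGF-β1, 27.2% higher in the mean (log2 fold change 0.35 ± 0.03, adjusted p = 3.67e-12). *Ttk*, the checkpoint kinase also called Mps1, went from 25.7, 27.4, 30.5 and 28.3 CPM to 32.0, 34.0, 33.8 and 34.7 CPM (log2 fold change 0.27 ± 0.05, adjusted p = 4.70e-06). The third checkpoint gene, *Bub1b*, rose less (0.11 ± 0.03, adjusted p = 0.00825), and *Cdc20*, the activator of the anaphase-promoting complex that the checkpoint restrains, rose by 0.10 ± 0.04 with overlapping groups (adjusted p = 0.0247). Both of the latter calls were lost with vehicle cultures 1 and 2 left out, whereas those of *Bub1* and *Ttk* were not.

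Of the markers used to count dividing cells, *Mki67*, which encodes Ki-67, had the highest level per exon length of the class, with means of 43.4 and 48.2 RPKM. It was at 431, 432, 448 and 436 CPM with vehicle and 499, 477, 490 and 475 CPM with TGF-β1, so the groups were apart and the rise was 11.1% (log2 fold change 0.15 ± 0.02, adjusted p = 2.83e-07). *Top2a*, the topoisomerase that untangles chromosomes, went from 329, 330, 354 and 353 CPM to 399, 388, 392 and 392 CPM (0.20 ± 0.02, adjusted p = 3.09e-09). The kinetochore and centromere genes *Cenpf* and *Cenpa* rose by 0.25 ± 0.03 and 0.20 ± 0.03 on the log2 scale (adjusted p = 1.21e-10 and 1.95e-06), and *Cenpe* by 0.07 ± 0.03 with overlapping groups (adjusted p = 0.0279). The call of *Cenpe* held in 8 of the 16 alternative settings other than the 1.2-fold test, where it was lost.

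The spindle motors *Kif23* and *Kif11* rose by 0.21 ± 0.03 and 0.16 ± 0.03, the spindle assembly factor *Tpx2* by 0.19 ± 0.03 and the microtubule-bundling gene *Nusap1* by 0.12 ± 0.04 (adjusted p = 1.24e-06, 3.23e-05, 3.91e-08 and 0.00728). Of the mitotic kinases, *Aurka* and *Aurkb* rose by 0.21 ± 0.04 and 0.18 ± 0.05 and *Plk1* by 0.12 ± 0.03 (adjusted p = 5.00e-05, 0.00121 and 0.00526). *Birc5*, which encodes survivin, the partner of *Aurkb* in the chromosomal passenger complex, rose by 0.12 ± 0.04 (adjusted p = 0.00926). Each of these changes was smaller than that of *Bub1*, and of the 8 genes just named *Plk1* and *Birc5* had groups that overlapped. With vehicle cultures 1 and 2 left out, the calls of *Aurkb*, *Plk1*, *Birc5* and *Nusap1* were lost, at log2 fold changes of 0.078, 0.055, 0.050 and 0.049, and *Aurka* and *Kif11* were still called, at 0.13 and 0.10.

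The genes of mitotic entry included the 3 of the class that did not pass the threshold. Cyclin A, which acts in S phase and G2, rose (*Ccna2*, 0.18 ± 0.03, adjusted p = 7.58e-05). *Cdk1*, the kinase of mitosis, rose by 0.12 ± 0.03 with overlapping groups (adjusted p = 0.00455). Its B cyclins had log2 fold changes of 0.08 for *Ccnb1* (95% interval -0.05 to 0.21, adjusted p = 0.328) and 0.02 for *Ccnb2* (-0.05 to 0.10, adjusted p = 0.681). Of the phosphatases that activate *Cdk1*, *Cdc25b* rose by 0.12 ± 0.04 (adjusted p = 0.0131) and *Cdc25c* had 0.13 ± 0.06 (adjusted p = 0.0668). With vehicle cultures 1 and 2 left out, *Cdk1* was at 0.033 (adjusted p = 0.476) and *Cdc25b* at 0.055 (adjusted p = 0.381), and neither was called. The groups of *Cdc25b* overlapped, and its call held in 12 of the 16 alternative settings other than the 1.2-fold test, where it was lost. *Foxm1*, the transcription factor of G2 and mitosis genes, rose by 0.12 ± 0.03 (adjusted p = 3.98e-04). With the same cultures left out, *Ccna2* and *Foxm1* were still called, at 0.10 and 0.079. Pseudogenes and other genes hold 27.8% of the 31-base words of *Ccnb1*, 26.7% of those of *Cdc20* and 18.7% of those of *Plk1*, which makes their levels less sure.

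**Figure D3:**
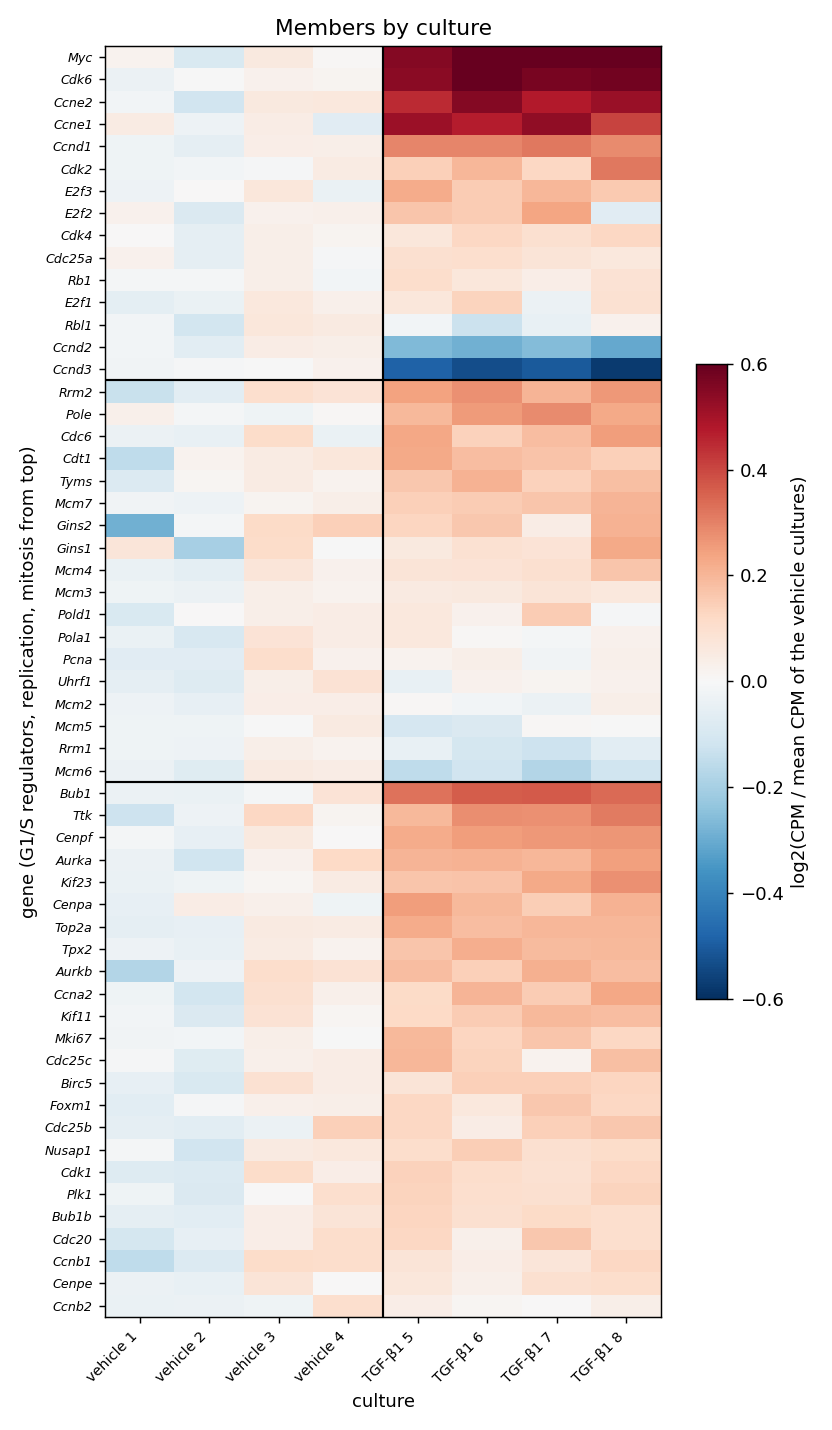
Level of each of the 57 genes (y axis, by class and ordered by fold change) in each of the 8 cultures (x axis), as the log2 ratio of its CPM to the mean of the 4 vehicle cultures. The colour scale ends at 0.6 either way. *Ccnd2* and *Ccnd3* stand out as blue and *Myc*, *Cdk6*, *Ccne1* and *Ccne2* as deep red in all 4 TGF-β1 cultures, and vehicle cultures 1 and 2 are paler or bluer than vehicle cultures 3 and 4 across the replication and mitosis genes.

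Summed over each class, the 3 classes differed in how far the groups lay apart. The mitosis genes summed to 2181, 2179, 2333 and 2312 CPM with vehicle and 2525, 2488, 2526 and 2528 CPM with TGF-β1, 11.8% higher and without overlap. The replication genes summed to 1894, 1896, 2029 and 2013 CPM and then to 2010, 2013, 1996 and 2043 CPM, where only vehicle cultures 1 and 2 lay clearly below the rest. The G1/S regulators summed to 2255, 2203, 2338 and 2322 CPM and then to 2273, 2278, 2282 and 2263 CPM, with the TGF-β1 cultures inside the vehicle range. This last sum adds genes that rose to genes that fell. In the replication genes too, vehicle culture 1 or 2 had the lowest vehicle value in 17 of the 18 (6 and 11 genes). The 4 TGF-β1 cultures were closer to each other than the vehicle cultures in all 3 sums, with SDs of 8.12 to 19.7 CPM against 62.5 to 82.5 CPM.

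**Figure D4:**
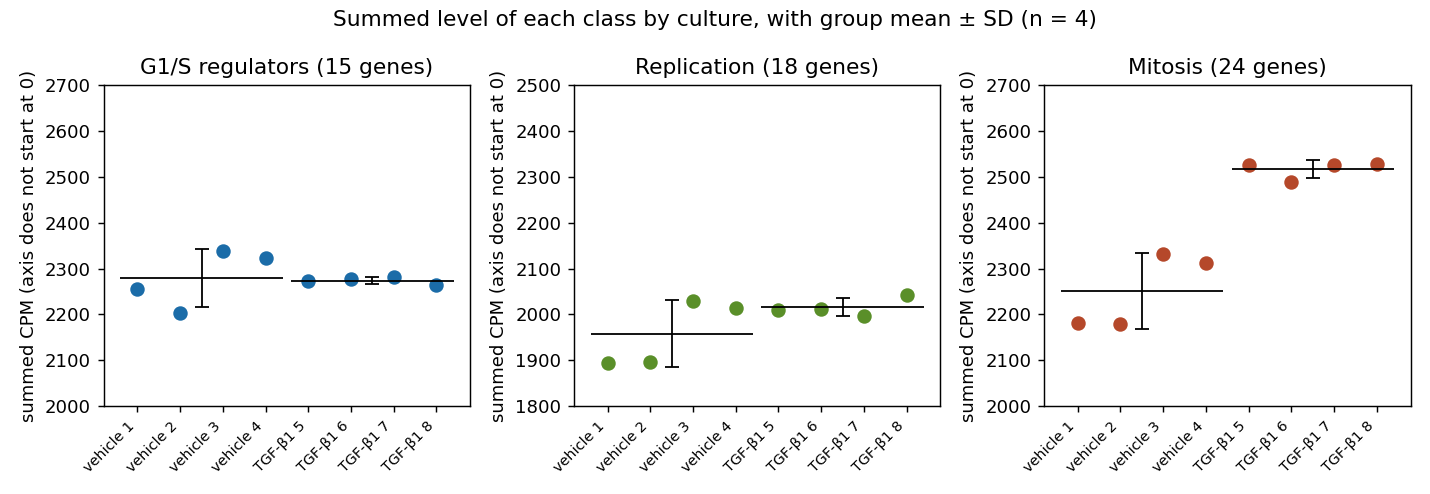
Summed CPM of each class in each culture (points), with group mean and SD (n = 4). The y axes do not start at 0. For mitosis genes the TGF-β1 cultures, at 2488 to 2528 CPM, lie above all vehicle cultures, while for G1/S regulators they lie within the vehicle range of 2203 to 2338 CPM.

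The stretches before the starts of *Bub1* and *Ttk* are shown as those of the mitosis genes with the largest changes. Both are from RefSeq on GRCm38.p6, with *Bub1* at chr2:127831866-127832109 on the minus strand and *Ttk* at chr9:83834439-83834688 on the plus strand. Capitals mark CCAAT, or ATTGG where the box reads on the other strand. Each stretch ends at the base before the annotated start of the gene. Counted from there, *Bub1* holds one box at 36 to 32 bases before the start and one on the other strand at 62 to 58, and *Ttk* holds boxes at 65 to 61 and 28 to 24.
Bub1: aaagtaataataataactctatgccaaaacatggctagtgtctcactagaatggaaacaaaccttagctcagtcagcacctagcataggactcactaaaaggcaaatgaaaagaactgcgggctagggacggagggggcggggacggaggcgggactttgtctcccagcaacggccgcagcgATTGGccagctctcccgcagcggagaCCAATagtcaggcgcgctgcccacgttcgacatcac
Ttk: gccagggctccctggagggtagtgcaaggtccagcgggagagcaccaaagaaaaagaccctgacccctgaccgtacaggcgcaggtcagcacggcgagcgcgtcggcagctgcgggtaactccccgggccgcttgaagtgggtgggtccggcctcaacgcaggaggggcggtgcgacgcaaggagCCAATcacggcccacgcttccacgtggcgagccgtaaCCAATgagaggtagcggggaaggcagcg

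RefSeq promoters were matched for 43 of the 57 genes, and the 250 bases before each RefSeq start, which can differ from the annotated start used above, were searched on both strands. CCAAT was found in 17 of 19 mitosis genes (89.5%), 10 of 14 replication genes (71.4%) and 4 of 10 G1/S regulators (40.0%), against 34.5% of all 27025 promoters. The cell cycle homology region, searched as TTTGAA or TTCGAA, was found in 7 of 19 mitosis, 2 of 14 replication and 1 of 10 G1/S genes, against 17.4% of all promoters. The E2F motif, searched as TTTCGCGC or TTTGGCGC, was found in 1 of 19, 3 of 14 and 2 of 10, against 0.673% of all promoters. None of these motifs contains another. *Cdk1* was the 1 gene of the 43 with all 3 motifs in its window. A match shows only that the letters are there, and CCAAT was found before called genes such as *Bub1* and before genes that were not called, such as *Ccnb2*. *Ccnd1*, *Ccnd2*, *Ccne2*, *Rb1*, *Myc*, *Mcm4*, *Gins1*, *Gins2*, *Pole*, *Ccna2*, *Cdc25c*, *Foxm1*, *Aurkb* and *Tpx2* were not matched.

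Other genes of the same pathway were counted for context, by lists that exclude the 57. Of 22 other G1/S genes tested, 12 rose and 4 fell, with a median log2 fold change of 0.10. The 3 largest changes were a fall of *Cables1*, a cyclin-dependent kinase adaptor (-1.06 ± 0.16, from 2.55 to 1.23 CPM), a rise of *Mycl*, a low-level relative of *Myc* (0.86 ± 0.16, from 1.35 to 2.45 CPM), and a rise of *E2f7*, a repressor E2F (0.33 ± 0.04). Of 55 other replication genes, 31 rose and 2 fell, with a median of 0.12. The largest changes there were rises of the nucleotide-pool enzymes *Dctpp1* and *Dut* (0.50 ± 0.10 and 0.46 ± 0.04) and of the polymerase epsilon subunit *Pole4* (0.34 ± 0.05). Of 74 other mitosis genes, 44 rose and 3 fell, with a median of 0.14. *Depdc1a*, the kinesin *Kif18a* and the centromere gene *Cenpl* had the largest rises (0.39 ± 0.05, 0.39 ± 0.05 and 0.34 ± 0.06). The share called higher was 54.5%, 56.4% and 59.5% in these 3 lists, against 68.4% of the 57 and 20.9% of all genes tested. Vehicle cultures 1 and 2 were below vehicle cultures 3 and 4 in these lists too, with sums of 4280 and 4250 against 4568 and 4565 CPM for the other mitosis genes and 2406 and 2396 against 2531 and 2497 CPM for the other replication genes. With both left out, 8 rose and 3 fell of the 22 other G1/S genes, 20 rose and 2 fell of the 55 replication genes and 29 rose and 5 fell of the 74 mitosis genes, at medians of 0.06, 0.08 and 0.07. The shares called higher were then 36.4%, 36.4% and 39.2%, against 16.6% of all genes tested, and the 9 genes named here were still called in the same direction. In the 1.2-fold test, 1 rose and 1 fell of the G1/S list, and 2 rose and none fell in each of the other two lists. Of all genes tested, 15.1% were called by that rule, a larger share than in each of these 3 lists.

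Of 7 CDK inhibitor genes, 1 rose, 3 fell, 1 did not pass the threshold and 2 had no counts. Of all genes tested, 20.9% rose and 20.3% fell. *Cdkn1a*, which encodes p21, rose from a mean of 365 ± 7.65 to 436 ± 5.10 CPM (SD, n = 4, log2 fold change 0.26 ± 0.02, adjusted p = 2.91e-13). *Cdkn1b*, which encodes p27, and *Cdkn2c*, which encodes p18, fell (-0.15 ± 0.03 and -0.14 ± 0.04, adjusted p = 1.76e-05 and 0.00382). *Cdkn1c*, which encodes p57, fell from 5.83 to 2.43 CPM (-1.26 ± 0.11, adjusted p = 6.30e-13), and *Cdkn2d* had 0.05 ± 0.06 (adjusted p = 0.543). *Cdkn2a* and *Cdkn2b*, of which *Cdkn2b* is a known TGF-β target in epithelial cells, had 0 counts in all 8 cultures, where 3 counts would be at most 0.0658 CPM. As a check of the treatment, the TGF-β response genes *Ltbp2*, *Ccn2*, *Pmepa1*, *Cthrc1*, *Skil*, *Smad7* and *Ski* rose, with log2 fold changes of 1.89, 1.10, 1.10, 1.06, 0.97, 0.60 and 0.31, and *Tgfbi* fell (-1.50 ± 0.09).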

How the data were processed

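The deposited values are raw counts per gene, 1 library per culture, from RNA extracted with a Maxwell simplyRNA kit and an Illumina stranded total RNA preparation. According to the submitters' notes and the study's methods, the authors aligned reads to mm10 with STAR 2.7.5c in 2 passes, discarded PCR duplicates with SAMtools 1.15 and made the counts with featureCounts 2.0.3 (Subread). The annotation release, the strand setting and the handling of shared reads are not given in the sources used here. Removing duplicates by position can lower the counts of abundant short genes. A symbol was found for 54409 of the 54532 identifiers, and GENCODE M21 (GRCm38) gave positions for 54495.

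Counts were analysed with edgeR 4.0.16 in R 4.3.3: filterByExpr by group, TMM factors, robust quasi-likelihood fit, glmQLFTest, Benjamini-Hochberg adjustment over 22544 genes and a threshold of 0.05. The SE of a log2 fold change is its size over the square root of F, and intervals are 95%. The code was first tested on simulated data. The main fit used all 8 cultures, and no fit had covariates. Alternatives were DESeq2 1.42.0, other scaling factors and count filters, glmTreat against a fold change of 1.2, halved counts and leaving out cultures.

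Totals were 45255235 to 47651397 counts. In each culture 68.5% to 70.2% of the counts from 1 to 20 were even, as when both mates of a pair are counted, so the number of fragments may be lower than the counts, and floors of 3 counts cover counting error only. Libraries of a group differed by more than sampling noise, with a chi-square per degree of freedom of 2.25 to 3.96 (1.14 to 2.10 with counts halved). Between groups it was 52.3 to 69.4 (29.0 to 38.4 with counts halved).

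The 57 genes, their 3 classes, the other lists and the rule for naming genes were chosen with earlier results of these data known. Any of the 57 may be named. In each class the genes with the highest level per length and the largest rise and fall are given by culture. At most 3 genes of each list of other pathway genes are named, by size of change among those called, and all CDK inhibitors and TGF-β response genes, except that 1 gene of the TGF-β response list is not reported here. Promoters were to be shown for the 2 genes of each class with the largest changes. *Myc* and *Pole* were not matched in the RefSeq table, and the window of *Cdk6* lies in an annotated exon. Windows were shortened where they entered an exon.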

Additional observations from a re-analysis of the deposited data

Results flagged for a closer look

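The 57 genes and the library totals in each group gave 116 sets of 4 cultures that were screened for 1 culture far from the other 3 by Dixon's test, and 7 stood out, where chance at 1 in 20 gives 5.8. With vehicle, culture 3 was high for *Rb1* at 70.7 CPM (nearest other 68.5) and for *Cdc6* at 29.02 CPM (26.2), culture 4 was high for *Ccnb2* at 47.1 CPM (43.2) and for *Cdc25b* at 55.8 CPM (49.3), and culture 2 was low for *E2f2* at 5.55 CPM (6.00). With TGF-β1, culture 5 was low for *Uhrf1* at 167.6 CPM (174.7) and culture 8 was high for *Aurka* at 39.4 CPM (38.3). Of these genes *Rb1*, *Cdc6*, *Cdc25b* and *Aurka* were called higher, and the other 3 were not called.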

How the results depend on the processing

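Of the 4 falls, that of *Ccnd3* was called in every setting, and those of *Ccnd2*, *Mcm6* and *Rrm1* in every setting except glmTreat. Of the 43 calls, 42 were kept with DESeq2, 43 with DESeq2 size factors in edgeR, 39 with library totals only, 40 with upper-quartile factors, 39 with at least 1 count in any culture, 43 with at least 10 counts in every culture and 43 with halved counts. With glmTreat against a fold change of 1.2, calls fell to 4 higher and 1 lower among G1/S regulators, 0 and 0 among replication genes (also 0 and 0 at an unadjusted p under 0.05, against 8 and 2 with DESeq2), 1 higher among mitosis genes, and 5 higher and 1 lower of all 57. With vehicle cultures 1 and 2 left out together, an alternative chosen after seeing the data, 30 of the 43 calls were kept, 12 mitosis genes were higher and the median log2 fold changes were 0.090 for G1/S regulators, 0.019 for replication, 0.084 for mitosis and 0.071 for all 57. Leaving out 1 culture at a time gave medians of 0.10 to 0.16 for G1/S regulators and 31 to 40 genes higher of the 57. Of all genes tested, 18.5% to 20.7% were called higher in those fits and 16.6% without vehicle cultures 1 and 2. With glmTreat 15.1% of all genes tested were called in either direction. *Cdc25a*, *Rb1*, *Mcm3* and *Cenpe* were lost most often.

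The genes that changed sign were not called in any of these settings. The log2 fold change of Mcm2 became 0.0021 with DESeq2 and with its size factors and ran from -0.016 to 0.017 over the fits without 1 culture. The log2 fold change of Uhrf1 became -0.0043 with library totals and ran from -0.015 to 0.035 without 1 culture, the log2 fold change of Pcna from -0.0033 to 0.060, and the log2 fold change of Pola1 from -0.0056 to 0.058. With vehicle cultures 1 and 2 both left out, the log2 fold change of Pcna was -0.057, the log2 fold change of Pola1 -0.050, the log2 fold change of Uhrf1 -0.062, the log2 fold change of Ccnb1 -0.036 and the log2 fold change of Ccnb2 -0.022. The cause was not tested. No paired analysis was possible because the vehicle and TGF-β1 cultures share no replicate number. By the study's methods the same isolates may have received both treatments, a pairing that every fit here leaves out. Among the 57, E2f2, Gins1 and Gins2 had the fewest counts and the widest intervals, so their changes are the least certain. How far depth sets these widths was not tested.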

Other observations

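*Cdkn2a* and *Cdkn2b* lie next to each other on chromosome 4 and had 0 counts in all 8 cultures, so the genes around them were looked at after those values were seen. On one side, Mtap (chr4:89137122-89181081 in GRCm38) had 4001 to 4582 counts per culture, and the long noncoding gene Gm12606 (chr4:89235699-89273403), which ends just before *Cdkn2a*, had 18 to 46. *Cdkn2a* (chr4:89274471-89294653), *Cdkn2b* (chr4:89306299-89311039) and the next 4 annotated genes, Gm12609, Gm12610, Gm12608 and Gm27580, were all at 0 in every culture. On the other side, Dmrta1 (chr4:89679436-89694772) had 1076 to 1393 counts. Of the 12 genes annotated from Mtap to Dmrta1, 6 were at 0 in all cultures. Only 4 of the 12 are protein-coding, and the 2 of these at 0 are *Cdkn2a* and *Cdkn2b* themselves. The other 4 genes at 0 are noncoding or pseudogenes. Of all identifiers 19.1% were at 0 in all cultures, and of protein-coding identifiers 6.75%. The run of zeros is given as values and was not tested. Vehicle and TGF-β1 cultures were alike in this. The other 3 genes of the interval had between 4 and 50 counts in each culture. The cause was not tested.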
